A study of Mus musculus with 2 samples.

Results

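The EDA ligand, its receptors and their adaptor were followed through the cells of the newborn mouse molar. The members are the genes Eda, Edar, Edaradd, Eda2r, Tnfrsf19, Traf6 and Tab2, chosen by symbol, and all 7 were found among the 31253 features of both count matrices. Mandibular first molar germs of newborn C57black/B6 mice were dissociated and captured on the BD Rhapsody microwell system. The control library came from Edarfl/fl mice, whose Edar gene carries loxP sites and which have no Cre. The deletion library came from K14cre;Edarfl/fl mice, which carry the same floxed allele and in addition a Cre recombinase driven by the keratin 14 promoter, so that recombination is directed to epithelium. Each genotype was 1 library, and how many germs of which sex each held is not given in the sources used here. No difference between the libraries therefore has a replicate check, and genotype, litter, dissociation and capture cannot be told apart.

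Ectodysplasin (Eda) is a ligand of the tumour necrosis factor family that is made as a membrane protein, cleaved by furin and bound by Edar, a receptor of ectodermal epithelium. Edar binds the adaptor Edaradd through their death domains, and Edaradd recruits Traf6, Tab2 and the kinase Tak1, which activates NF-kB. In teeth the pathway is known for its part in the enamel knots, the epithelial signalling centres that shape the cusps, and its loss gives small molars with few, flat cusps. Eda2r (Xedar) and Tnfrsf19 (Troy) are related receptors, and Eda2r binds the form of the ligand that Edar does not.

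After filtering, 13255 control and 15244 deletion cells were kept, with medians of 4444 and 3329 UMIs per cell, and 4 barcodes occurred in both libraries. Epithelium-like cells numbered 2274 and 1889, mesenchyme-like 8478 and 10993, endothelium-like 1229 and 983, leukocyte-like 848 and 883, mural-like 365 and 352, and glia-like 38 and 108. The 12 epithelium markers summed to 10901 and 9984 CPM (UMIs per 1000000 UMIs of the class) in epithelium-like cells and to 59.0 and 89.2 CPM in mesenchyme-like cells. Krt14, whose promoter drives the Cre, stood at 666 and 644 CPM in epithelium-like cells and at 2.79 and 4.19 CPM in mesenchyme-like cells. The sexes were mixed differently, since cells with Xist and no Y-linked UMI made up 20.8% of control and 34.9% of deletion cells, and the reverse 38.7% and 24.1%. This touches Eda and Eda2r, which lie on the X chromosome, and any member whose level differs between the pups of a library. Values are given as control then deletion, intervals are at 95% and cover counting error only, and log2 ratios are of CPM + 5, deletion over control.

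The ligand exists in forms that choose the receptor, and these are shown because the counts cannot separate them. Eda (ENSMUSG00000059327, plus strand of chromosome X, 99975606 to 100400762 of mm10) has 12 annotated transcripts, of which 9 code for protein. An insert of 6 bases near the receptor-binding part (chrX:100395144-100395149, in capitals) is present in Eda-206, as in the A1 form that binds Edar, and is absent from Eda-205, as in the A2 form that binds Eda2r. The lines give the coding strand around the insert, spliced, within chrX:100395114-100396934 of GRCm38, from the GENCODE M21 transcripts.
Eda-206: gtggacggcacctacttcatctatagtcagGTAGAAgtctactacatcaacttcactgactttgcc
Eda-205: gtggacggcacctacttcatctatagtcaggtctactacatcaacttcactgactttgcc
Eda-206 has 2 coding blocks that Eda-205 lacks, so the insert is not their sole difference. Their last 3856 bases are the same, and UMIs counted at the 3′ end of a transcript cannot tell the forms apart. Every value of Eda therefore sums ligand for Edar with ligand for Eda2r.

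Eda was found in mesenchyme and epithelium, with its highest epithelial level in one sub-cluster. In mesenchyme-like cells 349 and 622 UMIs gave 7.27 CPM (6.53 to 8.07) in the control and 14.4 CPM (13.3 to 15.6) in the deletion library. In epithelium-like cells 84 and 82 UMIs gave 8.07 CPM (6.44 to 9.99) and 11.9 CPM (9.49 to 14.8). The intervals of the 2 classes overlapped in each library. Mural-like cells held 5 and 5 UMIs, endothelium-like 4 and 8, leukocyte-like 1 and 9, and glia-like 2 and 4, too few to place glia, whose interval in the control ran from 2.09 to 62.3 CPM.

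Within the epithelium Eda stood highest in sub-cluster 2, led by the keratins Krt13 and Krt15. It reached 61.4 CPM (44.8 to 82.2) and 69.4 CPM (50.4 to 93.2) there, from 45 and 44 UMIs, with a count ratio between 0.73 and 1.75. An Eda UMI was seen in 15.8% and 15.7% of these cells, and in 11.6% and 11.9% after each cell was thinned to 1900 UMIs. These cells thus held 45 of 84 and 44 of 82 epithelial Eda UMIs. In the first round of clustering, cluster 21, led by Krt4 and Krt13, with 77 and 102 cells, had 6 and 18 Eda UMIs, 15.7 and 54.2 CPM. There Eda passed the 2-fold rule upward (at least 50 CPM in 1 library, CPM + 5 at least 2-fold apart and a count interval that excludes 1), with a log2 ratio of 1.51 and a count ratio of 1.31 to 10.6, in a cluster where 6.61% of 3481 genes passed in either direction. Krt14 was at 1489 and 1505 CPM in the cells of sub-cluster 2, above its level over all epithelium-like cells. Eda was near the floor in the cells that carry most Edar and in those that make enamel. Enamel knot-like cells had 3 and 2 UMIs and ameloblast-like cells 2 and 1. The 8 UMIs in deletion cells of sub-cluster 5, which had 0 in the control, lay in a cluster led by the mesenchyme genes Col3a1, Lum and Postn.

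Mesenchymal Eda followed the cell type. Sub-cluster 5, led by Grik1 and Nell2, had 28.2 CPM (21.4 to 36.4) and 37.0 CPM (31.3 to 43.5), and the small sub-cluster 3, led by Csmd1, had 35.4 and 30.8 CPM. Perivascular or fibroblast-like cells had 20.5 and 23.6 CPM, sub-cluster 10, led by Gldn, 18.1 and 23.9 CPM, and osteoblast-like cells 16.0 and 23.2 CPM. Dental follicle-like cells, which surround the germ, followed with 12.97 and 17.4 CPM. Odontoblast-like cells, which make dentin, had the least of the named types, at 1.31 and 2.25 CPM.

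Over all mesenchyme-like cells the log2 ratio of Eda was 0.66, and its count ratio lay between 1.73 and 2.26. That ratio moved with the mix of cells. Odontoblast-like cells, low in Eda, made up 21.8% of all control cells and 12.9% of all deletion cells, and dental follicle-like cells 12.5% and 20.03%. With each sub-cluster weighted by its share of both libraries together, the levels were 11.03 and 14.5 CPM and the log2 ratio 0.28. The ratio was above 0 in 11 of 13 sub-clusters, but its interval lay above 1 in 2 of them only. These were sub-cluster 2, led by Vdr, with 3.05 and 9.99 CPM, and the cycling sub-cluster 4, with 4.72 and 8.23 CPM. The 12 mesenchyme markers took 77501 and 50115 CPM, and their part in the ratio was not tested. How many of all genes were above 0, or had an interval above 1, in as many mesenchymal sub-clusters was not counted. Over all mesenchyme-like cells 65.2% of genes at 5 CPM or more had a ratio above 0 and 46.8% an interval wholly above 1. Less the median of all genes, the log2 ratio of Eda was 0.58.

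Mesenchymal Eda was also summed by sex. Cells with Xist only stood at 7.41 CPM (5.87 to 9.22) and 9.85 CPM (8.34 to 11.6), and cells with Y-linked UMIs only at 6.27 CPM (5.26 to 7.42) and 17.3 CPM (14.99 to 19.8). After weighting by sub-cluster the log2 ratios were 0.13 and 0.43. The intervals of the 2 libraries thus overlapped in cells with Xist and not in cells with Y-linked UMIs, a difference between sexes that was not tested. Pups, sexes and genotypes cannot be told apart in these libraries.

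**Figure D1:**
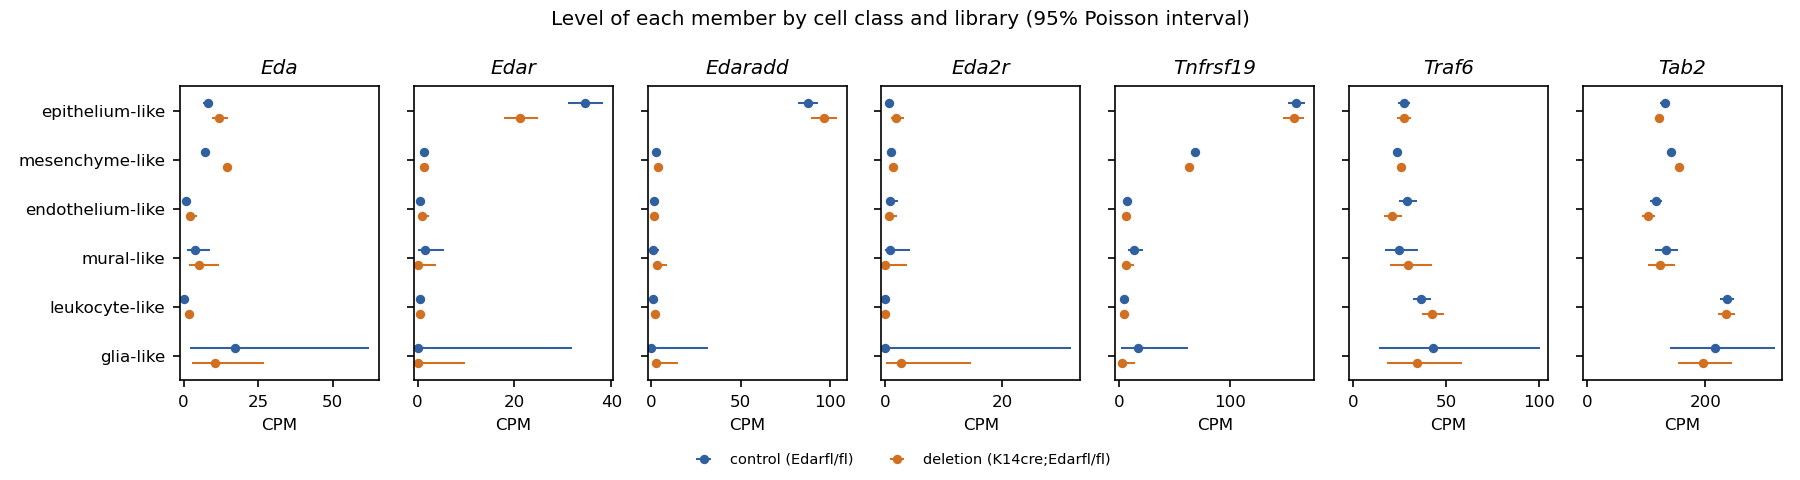
Level of the 7 members in CPM (horizontal axis, linear, from 0, a separate scale for each gene) in 6 cell classes, for the control (blue) and deletion (orange) library. Points are UMIs summed per class and lines are exact 95% Poisson intervals. Edar and Edaradd stand in epithelium, Eda in epithelium and mesenchyme, Tnfrsf19 in both at 159 and 68.3 CPM in the control, and Traf6 and Tab2 in every class.

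Edar (ENSMUSG00000003227, minus strand of chromosome 10, 58600789 to 58675654) is the targeted gene. Epithelium-like cells held 360 UMIs, 34.6 CPM (31.1 to 38.4), in the control and 145 UMIs, 21.1 CPM (17.8 to 24.8), in the deletion library. These intervals did not overlap, and the log2 ratio was -0.60 with a count ratio between 0.50 and 0.74. At 5 CPM or more, 17.7% of 10689 epithelial genes had a count interval wholly below 1. Which exons are floxed is not given in the sources used here, and a tag from the end of the transcript may still be counted after they are lost. The remaining 145 UMIs therefore do not measure how many cells kept the gene.

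Other classes held few Edar UMIs. Mesenchyme-like cells had 1.35 CPM (1.05 to 1.73) and 1.43 CPM (1.10 to 1.84), endothelium-like cells 0.412 CPM (0.050 to 1.49) and 0.832 CPM (0.172 to 2.43), and leukocyte-like cells 3 and 2 UMIs. Mural-like cells held 2 and 0 UMIs. Glia-like cells held 0 and 0, where 3 UMIs would have been 25.9 and 7.92 CPM. An Edar UMI occurred in 0.743% and 0.537% of mesenchyme-like cells, against 0.163% and 0.305% of endothelium-like cells. Within mesenchyme the most UMIs were in sub-cluster 5, one of those with high Eda, where 16 and 19 gave 7.77 CPM (4.44 to 12.6) and 4.82 CPM (2.90 to 7.52). Sub-cluster 10 had 3.01 CPM (1.30 to 5.94) and 4.39 CPM (2.51 to 7.13) from 8 and 16 UMIs, and sub-cluster 3 had 6.81 CPM (2.21 to 15.9) and 3.85 CPM (0.097 to 21.4) from 5 and 1, so these could not be ordered.

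Enamel knot-like cells carried the most Edar of any sub-cluster with at least 20 cells in each library. These 159 and 116 cells, named from marker genes that include no member, had 225 CPM (189 to 266) and 168 CPM (129 to 215) from 138 and 63 UMIs. An Edar UMI was seen in 47.2% (39.2 to 55.2) and 35.3% (26.7 to 44.8) of them, and in 33.6% and 25.7% after thinning, at median depths of 3333 and 2851 UMIs. The next was sub-cluster 0, led by Aldh1a1 and Ecel1, with 58.0 CPM (48.1 to 69.3) and 37.8 CPM (27.9 to 49.9), and its interval did not reach that of the enamel knot-like cells in either library. Sub-cluster 2, high in Eda, followed with 30.0 and 14.2 CPM, and the cycling sub-cluster 3 with 23.0 and 10.1 CPM. Stratum intermedium-like cells, a layer behind the ameloblasts, had 8 and 3 UMIs, and ameloblast-like cells 4 and 1.

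Edar was at a lower value in the deletion library in 9 of 12 epithelial sub-clusters. The count interval lay below 1 in 2 of them, sub-cluster 0 (0.46 to 0.91) and sub-cluster 9, led by Aldh1a3, where 15 and 3 UMIs gave 12.2 and 2.45 CPM (0.04 to 0.71). In enamel knot-like cells the count ratio ran from 0.54 to 1.01 and so included 1. How many of all genes were lower in as many epithelial sub-clusters was not counted. Over all epithelium-like cells 39.1% of 10689 genes at 5 CPM or more had a log2 ratio above 0. Among the 13 mesenchymal sub-clusters Edar was lower in 6 and higher in 5, with an interval below 1 in 1. With sub-clusters weighted by their share of both libraries together, epithelial Edar stood at 35.6 and 22.9 CPM, a log2 ratio of -0.54. Krt14, whose promoter drives the Cre, was at 614 and 464 CPM in enamel knot-like cells. It was at 529 and 587 CPM in sub-cluster 0 and at 346 and 292 CPM in sub-cluster 9. Its part in the Edar ratios was not tested.

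Epithelial Edar was summed in the same way. Cells with Xist only numbered 386 and 881 and had 45.2 CPM (35.7 to 56.4) and 22.0 CPM (17.4 to 27.5). Cells with Y-linked UMIs only numbered 883 and 288 and had 27.1 CPM (22.6 to 32.1) and 24.0 CPM (16.0 to 34.4), intervals that overlap. Enamel knot-like cells were 11.7% and 6.24% of the epithelium-like cells with Xist only, and 5.78% and 4.51% of those with Y-linked UMIs only. With sub-clusters weighted alike the levels were 46.6 and 25.8 CPM in cells with Xist only. In cells with Y-linked UMIs only both were 27.8 CPM, on 29 deletion UMIs. Whether the sexes differ in this was not tested.

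**Figure D2:**
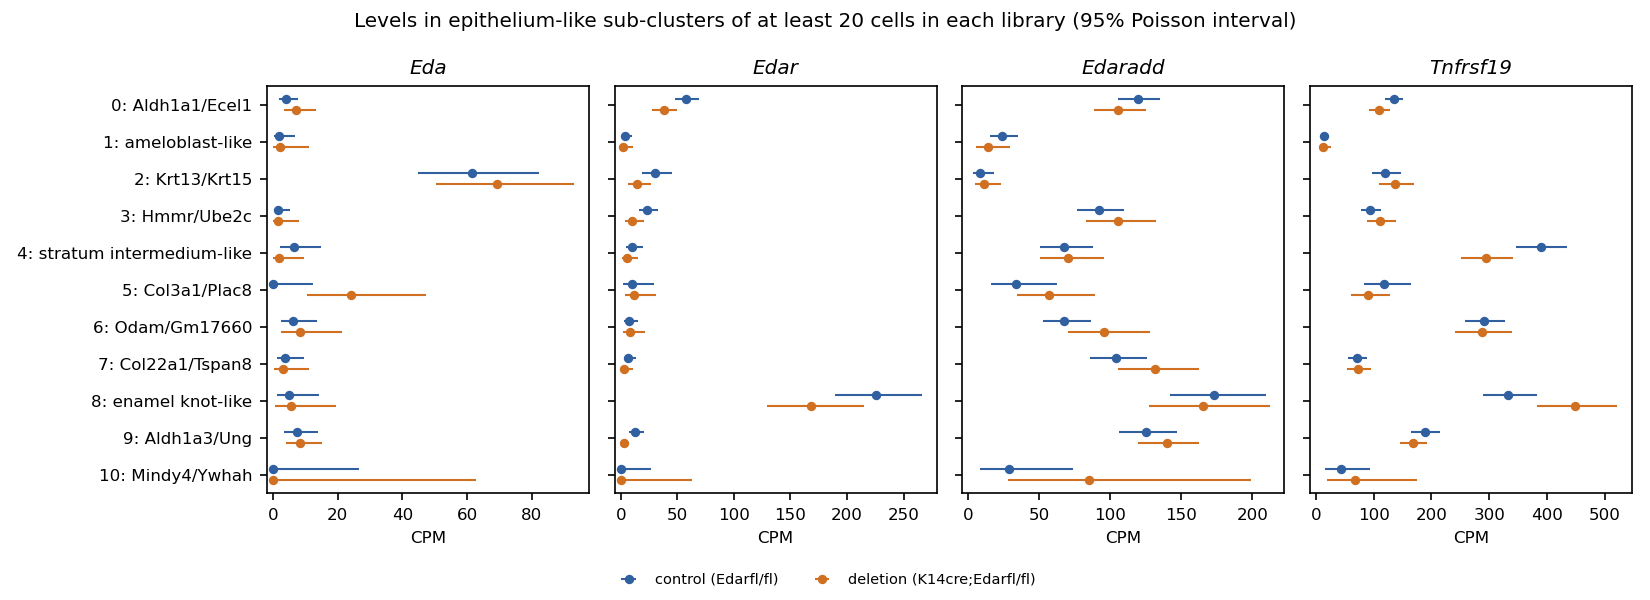
Levels of Eda, Edar, Edaradd and Tnfrsf19 in CPM (horizontal axis, linear, a separate scale for each gene) in the epithelial sub-clusters with at least 20 cells in each library, named by type or by leading genes. Points are summed UMIs of the control (blue) and deletion (orange) library, with exact 95% Poisson intervals. Enamel knot-like cells stand highest for Edar, at 225 and 168 CPM, and sub-cluster 2 for Eda, at 61.4 and 69.4 CPM.

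**Figure D3:**
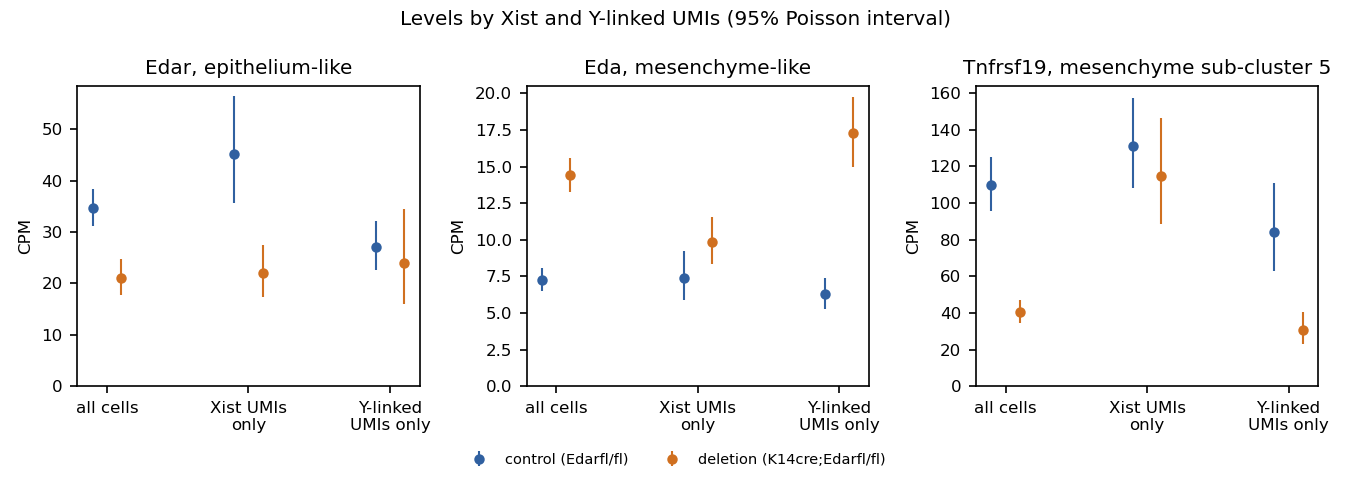
Edar in epithelium-like cells, Eda in mesenchyme-like cells and Tnfrsf19 in mesenchymal sub-cluster 5, in CPM (vertical axis, from 0), over all cells, over cells with Xist UMIs and no Y-linked UMI, and over cells with Y-linked UMIs and no Xist UMI. Points are summed UMIs of the control (blue) and deletion (orange) library, with exact 95% Poisson intervals. Control and deletion Edar stand apart in cells with Xist (45.2 and 22.0 CPM) and overlap in cells with Y-linked UMIs (27.1 and 24.0 CPM).

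Eda2r (ENSMUSG00000034457, minus strand of chromosome X, 97333840 to 97377216) was barely detected. Mesenchyme-like cells held 46 and 57 UMIs, 0.958 CPM (0.701 to 1.28) and 1.32 CPM (0.999 to 1.71). Epithelium-like cells held 7 and 13 UMIs, and 6 of the 13 lay in the sub-cluster led by mesenchyme genes. Perivascular or fibroblast-like cells had the highest level of the named types, 5.28 CPM (2.41 to 10.0) and 4.13 CPM (1.66 to 8.51), from 9 and 7 UMIs. Leukocyte-like cells had 0 and 0 UMIs, where 3 UMIs would have been 0.486 and 0.635 CPM. Most neighbouring types in this order could not be separated at this depth.

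Tnfrsf19 (ENSMUSG00000060548, minus strand of chromosome 14, 60963875 to 61046490) was present in epithelium and mesenchyme. Epithelium-like cells had 159 CPM (152 to 167) and 157 CPM (148 to 167), a count ratio of 0.91 to 1.06, and mesenchyme-like cells 68.3 CPM (66.0 to 70.7) and 62.5 CPM (60.1 to 64.9). Mural-like cells had 13.6 and 6.11 CPM, endothelium-like 7.42 and 6.38 CPM, and leukocyte-like 4.05 and 4.66 CPM. Epithelium and mesenchyme were thus separated from each other and from these classes. A long noncoding RNA on the opposite strand, Gm41168, overlaps the gene and had 8 and 7 UMIs in epithelium-like and 12 and 9 in mesenchyme-like cells.

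Epithelial Tnfrsf19 was highest in stratum intermedium-like and enamel knot-like cells. Stratum intermedium-like cells had 389 CPM (347 to 435) and 294 CPM (252 to 342), and enamel knot-like cells 333 CPM (289 to 382) and 448 CPM (383 to 522). The order of these 2 types was therefore opposite in the 2 libraries, and their intervals overlapped in the control and not in the deletion library. Sub-cluster 6, led by Odam, followed with 291 and 287 CPM and sub-cluster 9 with 189 and 168 CPM. Ameloblast-like cells, at 13.1 and 12.03 CPM, had the least.

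In mesenchyme Tnfrsf19 was highest in the cells that form bone. Osteoblast-like cells had 473 CPM (432 to 518) and 307 CPM (278 to 337), a count ratio of 0.57 to 0.74. Dental follicle-like sub-cluster 7 had 155 and 118 CPM (0.67 to 0.87), and sub-cluster 10 only 12.1 and 10.2 CPM. Its log2 ratio was below 0 in 12 of 13 mesenchymal sub-clusters, as it was for 2.94% of 3464 genes. The interval lay below 1 in 6 of the 13, as it did for 5.43% of those genes. Weighting sub-clusters by their share of both libraries gave 81.2 and 60.9 CPM, a log2 ratio of -0.39 against -0.12 unweighted.

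Over the 12 epithelial and 13 mesenchymal sub-clusters a member passed the 2-fold rule 2 times, and the case resting on more UMIs was a fall of Tnfrsf19. In mesenchymal sub-cluster 5, of 527 and 1139 cells, 226 and 159 UMIs gave 110 CPM (95.9 to 125) and 40.3 CPM (34.3 to 47.1), a log2 ratio of -1.34 and a count ratio of 0.30 to 0.45. A UMI was seen in 15.7% and 6.72% of its thinned cells. In that sub-cluster 0.462% of 3893 genes were lower by the same rule and 0.848% passed in either direction. By sex, cells with Xist only had 131 CPM (108 to 157) and 115 CPM (88.7 to 146) and cells with Y-linked UMIs only 84.4 CPM (63.0 to 111) and 31.0 CPM (23.1 to 40.6). The former were 242 and 182 cells and the latter 136 and 452, and the part of the sex mix in the ratio was not tested. Gm41168 had 0 and 0 UMIs in the sub-cluster. Among the clusters of the first round, before epithelium and mesenchyme were divided again, members were called 2 times as well. Tnfrsf19 was lower in mesenchymal cluster 9, also led by Grik1, at 74.4 and 33.6 CPM (0.36 to 0.56), where 0.719% of 3896 genes passed in either direction. The other call there was Eda in cluster 21, given above.

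**Figure D4:**
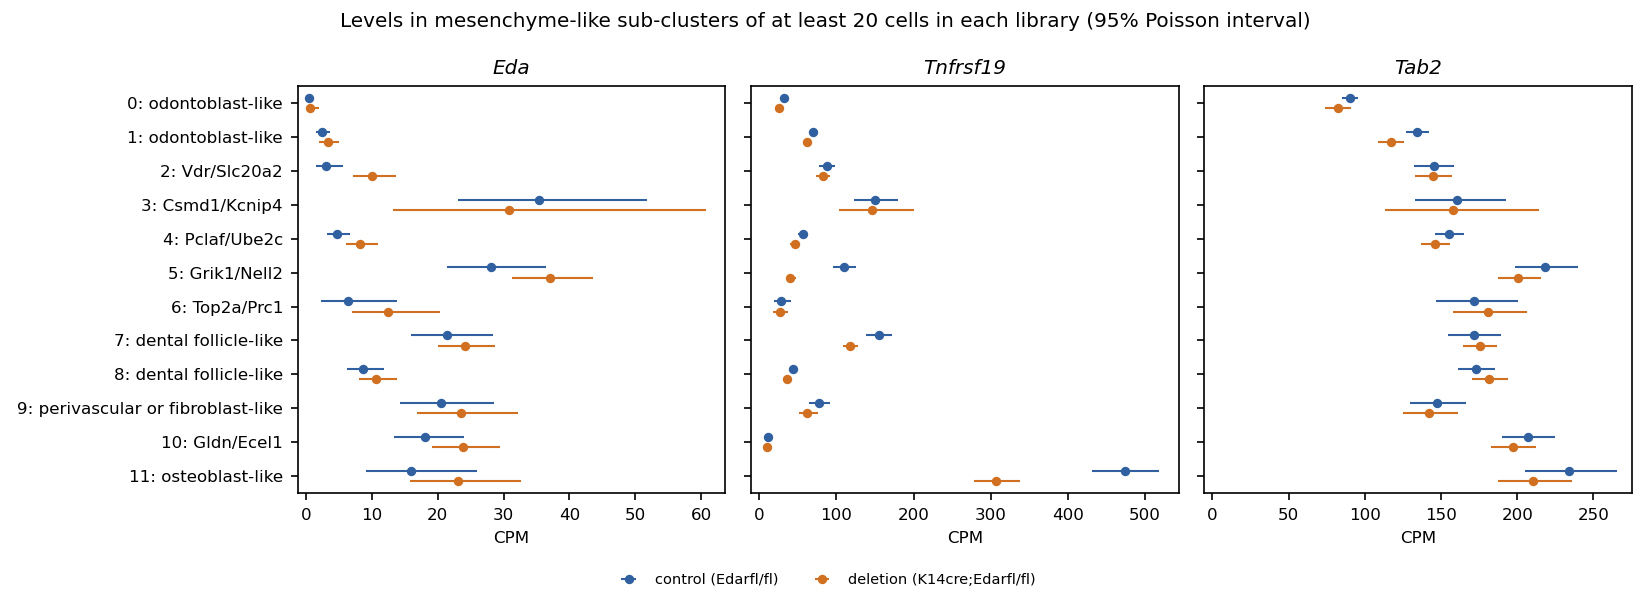
Levels of Eda, Tnfrsf19 and Tab2 in CPM (horizontal axis, linear, a separate scale for each gene) in the mesenchymal sub-clusters with at least 20 cells in each library, named by type or by leading genes. Points are summed UMIs of the control (blue) and deletion (orange) library, with exact 95% Poisson intervals. Tnfrsf19 peaks in osteoblast-like cells at 473 and 307 CPM and stands at 110 and 40.3 CPM in sub-cluster 5, where Eda is at 28.2 and 37.0 CPM.

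The adaptor Edaradd (ENSMUSG00000095105, minus strand of chromosome 13, 12472632 to 12520438) was an epithelial gene in both libraries. Epithelium-like cells had 912 and 663 UMIs, 87.6 CPM (82.0 to 93.5) and 96.5 CPM (89.3 to 104), and a UMI was seen in 26.9% and 25.1% of cells, or 15.5% and 15.9% after thinning. Its log2 ratio was 0.13, with a count ratio between 0.995 and 1.22. Mesenchyme-like cells had 2.81 and 3.66 CPM and endothelium-like cells 1.24 and 1.39 CPM.

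Edaradd was spread more widely over the epithelium than Edar. Enamel knot-like cells had 173 CPM (142 to 209) and 165 CPM (127 to 212), sub-cluster 9 had 125 and 140 CPM, sub-cluster 0 had 119 and 106 CPM, and sub-cluster 7, led by Col22a1, had 104 and 132 CPM. Stratum intermedium-like cells had 67.0 and 70.2 CPM and ameloblast-like cells 23.4 and 14.04 CPM. Sub-cluster 2, with the highest epithelial Eda, had the least Edaradd in each library, 8.19 CPM (3.01 to 17.8) and 11.04 CPM (4.44 to 22.8), from 6 and 7 UMIs. The other call of a member was in sub-cluster 11, where 1 and 9 UMIs in 7 and 9 cells, 26.2 and 228 CPM, passed the rule upward, as 2.37% of 5650 genes there passed it in either direction.

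Traf6 and Tab2, shared by many receptors, were found in every class. Traf6 (ENSMUSG00000027164, plus strand of chromosome 2, 101678429 to 101701669), the ubiquitin ligase that Edaradd recruits, had 27.3 and 27.2 CPM in epithelium-like, 23.7 and 25.5 in mesenchyme-like and 36.8 and 42.5 in leukocyte-like cells. Osteoclast-like cells, in which Traf6 is known to relay the signal of RANK, had 72.4 and 52.9 CPM. Its level in endothelium-like cells was 29.1 and 21.1 CPM, a count ratio of 0.54 to 0.97, and there 15.8% of 10068 genes had an interval wholly below 1.

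Tab2 (ENSMUSG00000015755, minus strand of chromosome 10, 7905653 to 7956230), which ties the kinase Tak1 to ubiquitin chains, had 131 and 122 CPM in epithelium-like and 143 and 155 CPM in mesenchyme-like cells. Leukocyte-like cells had 236 and 236 CPM, above every other class apart from glia-like cells, whose intervals overlapped theirs. Neutrophil-like cells among them had 428 and 300 CPM, a count ratio of 0.52 to 0.94. In epithelial sub-cluster 9 Tab2 stood at 87.8 and 131 CPM (1.16 to 1.92), and in odontoblast-like cells at 109 and 103 CPM. With mesenchymal sub-clusters weighted by their share of both libraries, Tab2 had 161 and 155 CPM, a log2 ratio of -0.05 against 0.12 unweighted, and the ratio was below 0 in 9 of 13 sub-clusters, so its direction turned with the weights. That of mesenchymal Traf6 was 0.09, and below 0 in 7 of 13.

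No member passed the 2-fold rule in the 4 main classes or in enamel knot-like cells. Of the 7, 3 reached 50 CPM in epithelium-like cells, 2 in mesenchyme-like, 1 in endothelium-like, 1 in leukocyte-like and 4 in enamel knot-like cells, so that Edar over all epithelium could not have been called. With the minimum at 5 CPM the count was again 0. Over all genes the rule was passed by 0.253% of 3554 in epithelium-like, 0.491% of 3464 in mesenchyme-like, 0.272% of 3311 in endothelium-like, 0.572% of 3498 in leukocyte-like and 3.32% of 3648 in enamel knot-like cells. With so few members at 50 CPM, a count of 0 is near these shares and does not set the members apart from other genes.

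On the rest of the route from EDAR to NF-kB no gene was called in epithelium-like cells. Only 5 of the 23 signalling genes reached the 50 CPM that the rule asks for, so the others could not have been called. With 0.253% of all genes called, a count of 0 does not set these 5 apart. Of 23 signalling genes 20 had at least 5 CPM, with 6 log2 ratios above 0 and 14 below, where 39.1% of all 10689 genes at that level lay above. Their median was -0.04, as was that of all genes. The ubiquitin enzyme Ube2n had 196 and 201 CPM, the NF-kB inhibitor and target Nfkbia 149 and 165 CPM (1.02 to 1.20), and Map3k7, which encodes Tak1, 78.1 and 69.7 CPM. Furin, the protease that frees Eda, had 98.1 and 84.7 CPM (0.78 to 0.96). In mesenchyme-like cells 17 of 20 had a ratio above 0, beside 65.2% of all genes, with a median of 0.10 where that of all genes was 0.08. Their log2 ratios ran from -0.26 to 0.90. The count interval lay above 1 for 11 and below 1 for 1, beside 46.8% and 20.1% of all genes. Nfkbia, of highest control level there, had 204 and 302 CPM (1.44 to 1.52). In leukocyte-like cells 18 of 23 were above 0, beside 52.6% of all genes, with a median of 0.16 against 0.01. The endothelium-like cells had 6 of 21 above 0, beside 36% of all genes.

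Of 15 genes listed as targets of EDAR, 14 were measured, and none was called in epithelium-like cells, where 4 reached 50 CPM and could have been. The 10 at 5 CPM or more divided into 5 above and 5 below 0, with a median of -0.01 and log2 ratios from -0.72 to 0.41. Their count interval lay above 1 for 2 and below 1 for 4, beside 8.69% and 17.7% of all epithelial genes at that level. Shh, an enamel knot signal, had 494 and 351 CPM (0.68 to 0.75) and Wnt10a 82.7 and 65.8 CPM (0.71 to 0.89). Sostdc1, a Wnt and BMP inhibitor, had 525 and 497 CPM (0.91 to 0.99). Wnt10b, under the 50 CPM that the rule asks for, had 41.8 and 23.4 CPM (0.47 to 0.67), a log2 ratio of -0.72, and was named with its values known. In enamel knot-like cells the 11 targets at 5 CPM or more had a median of 0.39 against 0.05 for all genes. There 7 targets reached 50 CPM, and 0 were called. Of these 11, 7 lay above 0, beside 53.5% of all 11113 genes at that level. Their log2 ratios ran from -0.77 to 2.40. The count interval lay above 1 for 3 and below 1 for 2, beside 4.64% and 2.94% of all genes. Shh and Wnt10b, on this list, are also among the marker genes that named these cells. In endothelium-like cells the chemokine Cxcl10 rose past the rule, from 116 to 327 CPM, a log2 ratio of 1.45, in a class where 0.211% of 3311 genes were higher and where Edar had 2 and 3 UMIs. In mesenchyme-like cells, where it stayed under 50 CPM, Cxcl10 had 4.77 and 25.6 CPM (4.65 to 6.21), a log2 ratio of 1.65.

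Other TNF receptors were scarce in the epithelium. Of 20, 9 had at least 5 CPM and 0 had 50 CPM, and 3 lay above and 6 below 0, with a median of -0.06. Tnfrsf1a had 21.9 and 16.7 CPM, Cd40 19.0 and 18.3 CPM, Tnfrsf12a 14.03 and 12.8 CPM, and the decoy receptor Tnfrsf11b 13.3 and 6.84 CPM (0.36 to 0.72).

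Co-detection asked whether receptor and adaptor transcripts met in the same cell. Over all UMIs, 95 control and 45 deletion epithelium-like cells held both Edar and Edaradd, which is 4.18% (3.39 to 5.08) and 2.38% (1.74 to 3.17). Of these, 49 and 26 also held Traf6 or Tab2. Edar without Edaradd was seen in 143 and 67 cells, and Edaradd without Edar in 516 and 429, or 22.7% in each library. At these depths a missing UMI does not show that the transcript was absent.

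Thinning to 1900 UMIs puts the cells that have as many at the same depth and leaves out the others. It left out 260 of 2274 control and 350 of 1889 deletion epithelium-like cells. Among cells with an Edar UMI, 25 of 126 control cells (19.8%) and 14 of 61 deletion cells (23.0%) had an Edaradd UMI, against 15.3% and 15.6% of cells without Edar. If both genes were drawn independently within each sub-cluster, 28.5 and 12.5 such cells would be counted, and both products lie within the counting intervals of 16.2 to 36.9 and 7.65 to 23.5. Tnfrsf19 met Edar in 52 cells (38.8 to 68.2) where that product was 34.8, and in 25 cells (16.2 to 36.9) where it was 19.6. It was seen in 41.3% and 41.0% of cells with an Edar UMI and in 19.5% and 21.9% of cells without. The control interval lay above its product and the deletion interval included it.

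Nfkbia, Wnt10b, Shh and Sostdc1, all on the list of targets, were also set against Edar. Wnt10b and Shh are also among the marker genes that named the enamel knot-like cells. Nfkbia was seen in 41.3% and 39.3% of cells with an Edar UMI, 52 cells against a product of 39.1 and 24 against 18.0. Wnt10b was seen in 26.98% and 29.5% of cells with an Edar UMI and in 3.71% and 2.98% of cells without, and its 34 and 18 cells compared with products of 27.6 and 11.8. The counting intervals of both genes included their products in both libraries. Tab2 met Edar in 24 and 12 cells (products 23.5 and 13.8) and Traf6 in 7 and 2 (8.13 and 3.62).

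Ligand and receptor seldom met. Eda and Edar were together in 8 and 4 epithelium-like cells, or 3 and 1 after thinning. Eda and Eda2r shared 0 and 0 epithelium-like cells, which allows up to 0.162% and 0.195% of cells with a UMI of both. This sets no limit on cells that express them. Eda and Eda2r shared 3 and 5 mesenchyme-like cells.

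**Figure D5:**
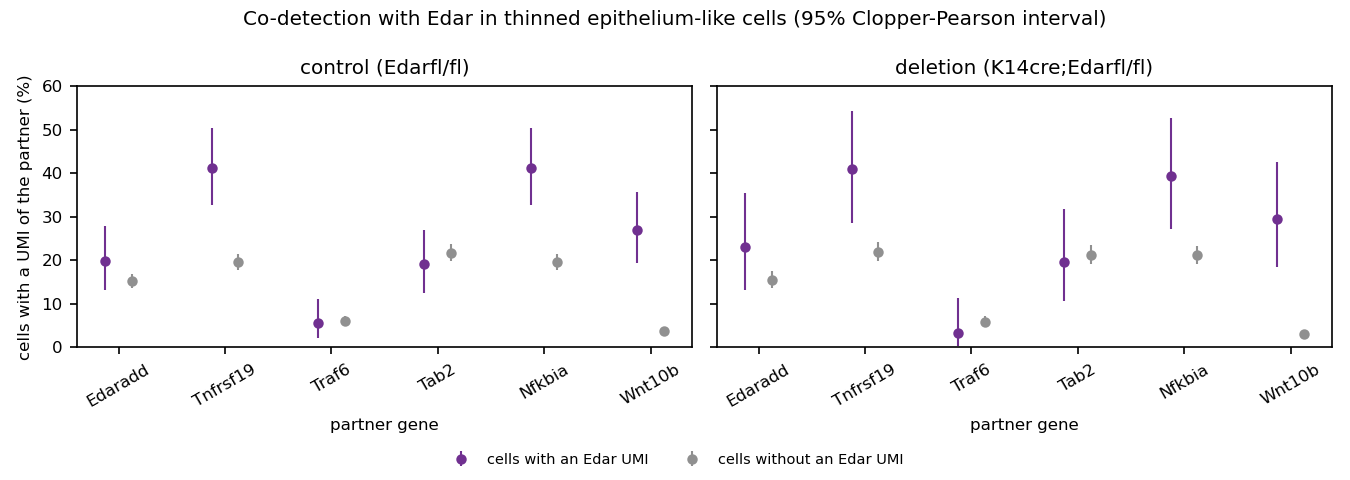
Share of thinned epithelium-like cells with a UMI of each partner gene (vertical axis, percent, from 0), among cells with an Edar UMI (purple) and without (grey), in the control (left) and the deletion (right) library. Lines are exact 95% Clopper-Pearson intervals. Wnt10b, Tnfrsf19 and Nfkbia stand higher in cells with Edar in both libraries, while the intervals of Edaradd, Traf6 and Tab2 overlap. Shh and Sostdc1, also set against Edar, are not drawn.

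Patterns across cell types were compared over 34 sub-cluster profiles of log2(CPM + 5) in the control library, which share a library and differ in depth. Pearson's r of Edar was highest with Ly6g6e (0.91), Kremen2 (0.88), Pclo (0.86), the growth factor Fgf9 (0.83) and Tmem54 (0.81), among 9301 genes. In the deletion library the r of these genes with Edar was 0.68, 0.79, 0.77, 0.70 and 0.64. Ly6g6e, Pclo and Tmem54 had their highest control level in epithelial sub-cluster 11, of 7 control cells, where 3 UMIs would be 78.7 CPM. Ly6g6e stood at 52.5 CPM there, so its r rests on very few UMIs. Over the 32 profiles with at least 20 cells in each library Kremen2 (0.85), Pclo (0.83), Krt8 (0.81), Fgf9 (0.80) and Smyd3 (0.79) led, so Kremen2, Pclo and Fgf9 were named both ways. All of these 3 genes had their highest level among the 32 profiles in enamel knot-like cells. Fgf9 is among the marker genes that named those cells, so its peak there is not independent of the name.

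Edaradd was most like the transcription factor Bcl11a (0.88), the integrin adaptor Fermt1 (0.86), Tmem54 (0.85), the cadherin Cdh3 (0.85) and Otof (0.85). Eda was most like the activin inhibitor Fst (0.77), Megf6 (0.74), the matrix proteoglycan Vcan (0.74), the basement membrane collagen Col4a5 (0.73) and Slc38a4 (0.73). Eda2r was most like Arsi (0.81), Zim1 (0.75), Osr1 (0.72), Mn1 (0.68) and Medag (0.68), all of them highest in perivascular or fibroblast-like cells. In the deletion library these r were 0.40, 0.37, 0.20, 0.17 and 0.36. Eda2r itself reached at most 5.28 CPM in a mesenchymal and 3.27 CPM in an epithelial sub-cluster of the control. Its r therefore rest on few UMIs, also that with Eda given below. Tnfrsf19 was most like Tada2a (0.74), Rpgrip1l (0.73), Kctd3 (0.73), Ptpn3 (0.72) and Phgdh (0.72), with 0.40, 0.56, 0.39, 0.27 and 0.60 in the deletion library. Rpgrip1l and Kctd3 were highest in the 7 control cells of epithelial sub-cluster 11, at 52.5 and 105 CPM, again on few UMIs. Over the 32 profiles Bcl11a and Tmem54 were again among the first 5 for Edaradd, Fst, Megf6 and Col4a5 for Eda, and Arsi, Zim1 and Osr1 for Eda2r. For Tnfrsf19 Rai1, Tenm4, Arhgef19, Tada2a and Itfg2 led, so that of its first 5 Tada2a was named both ways. Among the members, r was 0.68 and 0.53 for Edar with Edaradd, 0.60 and 0.62 for Edaradd with Tnfrsf19, 0.51 and 0.51 for Edar with Tnfrsf19, 0.51 and 0.48 for Eda with Eda2r, and 0.07 and 0.22 for Eda with Edar.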

How the data were processed

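The values are raw counts of UMIs, whole numbers for each gene in each cell barcode, as the authors deposited them. STARsolo and mm10 are named per the submitters' processing notes. Neither a version, nor the annotation, nor the barcode rule is given in the sources used here. The libraries held 13990 and 16029 barcodes with 73375441 and 62158879 UMIs. Barcodes with at least 500 genes and at most 20% mitochondrial UMIs were kept, and Scrublet, within scanpy 1.11.5, removed 176 and 243 doublets (1.31% and 1.57%). Counts were scaled to 10000 per cell, and 2000 variable genes, without the members and the signalling list, gave 30 components, 15 neighbours and Leiden clusters at resolution 1, with 0.6 within epithelium and mesenchyme. A cluster was named from a marker list by a score set after the data were seen, and one whose leading genes belong to another class stayed unnamed. UMIs were summed per class and library, with exact Poisson, Clopper-Pearson and conditional binomial intervals. The 2-fold rule was tested on simulated counts that held counting error only. Differences between animals, captures or mixes of cells were not simulated. Thinning to 1900 UMIs left out 946 and 1644 cells. Named genes are the members, list genes past the rule, otherwise up to 4 of highest control level per list and class, and the 5 genes most like a member. Wnt10b was added for co-detection, chosen with its values known, as were leading genes that say what a cluster is. The members and lists were chosen with earlier results of these data known. Alternatives covered filters, doublets, pseudocount, minimum level, weighting of sub-clusters, thinning, clustering, sex and scaling.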

Additional observations from a re-analysis of the deposited data

Results flagged for a closer look

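The log2 ratio of Tnfrsf19 pointed opposite ways in cell types of the same libraries. It was 0.42 in enamel knot-like cells, with a count ratio of 1.09 to 1.66. It was -0.40 in stratum intermedium-like cells (0.62 to 0.91) and -0.62 in osteoblast-like cells (0.57 to 0.74). The medians of all genes were 0.05, -0.06 and 0.00 in these types. With 1 library per group the difference between the cell types was not tested. By sex, enamel knot-like cells had 508 and 370 CPM with Xist only and 265 and 279 CPM with Y-linked UMIs only, so the direction in all cells was not that in cells with Xist only. Stratum intermedium-like cells had 355 and 306 CPM and 411 and 308 CPM, and osteoblast-like cells 489 and 279 CPM and 435 and 315 CPM.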

How the results depend on the processing

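The count of members past the 2-fold rule was 0 in each of the 4 classes under every setting tried. The log2 ratio of epithelial Edar was -0.60, and it was -0.89 in cells with Xist only, -0.15 in cells with Y-linked UMIs only and -0.00094 in the latter with sub-clusters weighted by pooled cells. Epithelial Edaradd, at 0.13, was 0.45 with equal sub-cluster weights, a setting that gives 16 cells of sub-cluster 11 the weight of any other. Mesenchymal Eda, at 0.66, was 0.90 with a pseudocount of 1 CPM, 0.47 in thinned cells, 0.094 with equal weights and 0.28 with weights by pooled cells. It was 0.26 and 0.98 in cells with Xist only and with Y-linked UMIs only, and 0.13 and 0.43 with those cells weighted by pooled cells. The causes were not tested. Weighting by pooled cells and the 20-cell minimum for profiles were chosen after seeing the data. Of 327 values of the 25 other log2 ratios, 257 kept within the counting interval and 70 moved beyond it. None of these ratios was called, and 49 values, of 18 ratios, had the sign opposite to the reported one. Mesenchymal Tab2, at 0.12, was -0.02 with equal weights, -0.05 with weights by pooled cells and -0.10 in cells with Xist only, and mesenchymal Traf6, at 0.09, was -0.17 in cells with Xist only. No paired analysis was possible because each group is 1 library and the groups share fewer than 2 replicate numbers. Counts under about 10 UMIs, as for Eda2r in most types, limit what can be ordered.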
